A study of Macaca fascicularis with 3 samples.

Results

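The cells described here are the mouse ovarian somatic cells of xenogeneic reconstituted ovaries, compared between a library made with cells taken at E15.5 (E for embryonic day) and one made with cells taken at E13.5. A barcode was counted as a mouse somatic cell when it held at least 1000 UMIs (unique molecular identifiers, 1 per captured RNA molecule) and fewer than 1% of them in the 13 protein-coding mitochondrial genes. Reads were counted on monkey genes alone, so mouse RNA was seen only where it mapped to one of them. Close to the limit, 3 mouse barcodes in E13.5 and 6 in E15.5 lay between 0.9% and 1%, and 6 and 4 other barcodes between 1% and 1.1%. The rule took 3382 of the 6262 deposited barcodes of the 2 libraries, out of 7827 in the series. Of these, 1643 came from E13.5 and 1739 from E15.5. The library of the stage in between, E14.5, gave 717 and is shown beside them.

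The study aggregated germ cells derived from the wildtype cynomolgus monkey embryonic stem cell line 15XRi-AGVT#7 with mouse fetal ovarian somatic cells and profiled single cells by 10x Genomics 3′ RNA sequencing. The line carries TFAP2C-EGFP and DDX4-tdTomato, reporters of early and later germ cells. Each stage has 1 library without replicates, and all 3 carry the same line, the same reporters and the same culture label, ag49+52. The stage is that of the mouse cells when the aggregates were made, so the cells were sampled after culture and not at E13.5 or E15.5 themselves. Mouse cells were collected as reporter-negative, live, low-width cells and mixed back with sorted germ cells, so their number and part of their makeup were set by the sort. The labels give no mouse strain, no number of embryos and no statement of pooling.

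In the fetal ovary, supporting cells that express FOXL2, WNT4 and RSPO1 become pregranulosa cells and enclose the germ cells. They arise from the coelomic epithelium, the surface layer marked by uroplakin, keratin and mesothelin genes, while collagen-producing stromal cells fill the space between. WNT, NOTCH, BMP and activin signals act among these cells, and INHA, the inhibin alpha subunit gene, marks cells of the granulosa lineage as they differentiate.

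The mouse barcodes held 11642304 UMIs in E13.5, 5548443 in E14.5 and 11387916 in E15.5, with medians of 6457, 6699 and 5325 per barcode. A gene at 20 CPM (its UMIs per 1000000 UMIs of the summed barcodes) then has an exact Poisson 95% interval of 17.5 to 22.8 CPM in both libraries compared. Where values follow each other without a stage, they are in stage order from the earliest. Intervals here and below cover counting error only, and no difference between libraries has a replicate check or a p-value. Levels of different genes are not comparable, because only 3′ ends were counted and mapping across species differs from gene to gene. Close copies of a gene, as in the histone, keratin, elastase and CYP2D families, can share reads. Whether mouse reads of another locus were counted on a monkey gene could not be checked, and this touches the leading lower features MTRNR2L5, RNF152 and LOC107129917. The E13.5 and E15.5 libraries shared 643 barcodes, 379 of them other barcodes (at least 1000 UMIs, at least 1% mitochondrial) in both, with medians of 47614 and 2169 UMIs. No barcode was a mouse barcode in both, and 2 mouse barcodes of E15.5 were shared at all. These 2 were deep, with a median of 33839 UMIs. Without shared barcodes, 47 genes were at least 2-fold higher in E15.5, 45 of them among the 51 called below. The median mitochondrial share of mouse barcodes was 0.0339% in E13.5, 0.0145% in E14.5 and 0.103% in E15.5. RNA of 20 germ cell genes stood in mouse barcodes at a median of 1.47%, 3.85% and 4.33% of its level in the other barcodes of the same library. Single genes ran from 0.300% to 16.4% in E13.5, 0.437% to 19.8% in E14.5 and 1.25% to 13.1% in E15.5. A gene was marked when free RNA at the median share could give over 25% of its mouse value, so the marks are approximate.

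The labelled cell type was checked against its markers. Summed supporting cell identity genes reached 3718, 3424 and 3796 CPM in mouse barcodes, in stage order, against 407, 424 and 383 CPM in the other barcodes. Summed stroma genes were at 3819, 3128 and 3955 CPM against 368, 310 and 366 CPM. The 20 germ cell genes summed to 36.5, 64.3 and 76.9 CPM in mouse barcodes against 1699, 1793 and 1721 CPM in the others. Of the 14 endothelial and 14 immune genes none reached 20 CPM over all mouse barcodes, and C1QA and C1QC had no UMI in E13.5 or E15.5. The red blood cell list summed to less than the level of 3 counts in E15.5, with 0.176 CPM.

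Between E13.5 and E15.5 the sums were alike for most genes. CELA1, keratin and other surface epithelium genes and the gonadal transcription factor LHX9 were higher in E15.5. MTRNR2L5, RNF152, the histone gene H4C9, the cytokine signalling suppressor SOCS3 and several stromal matrix genes were lower. Of 4922 genes at 20 CPM or more in 1 of the 2 libraries, 51 were at least 2-fold higher in E15.5 (1.04%) and 61 at least 2-fold lower (1.24%) on the scale of log2(CPM + 1). Among them, 7 of the higher and 3 of the lower genes were marked for free germ cell RNA. The median log2 ratio of all 4922 genes was 0.04, and the central 95% of genes lay between -0.81 and 0.73. In sums of this kind, fewer cells of a type and less RNA per cell cannot be told apart.

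**Figure D1:**
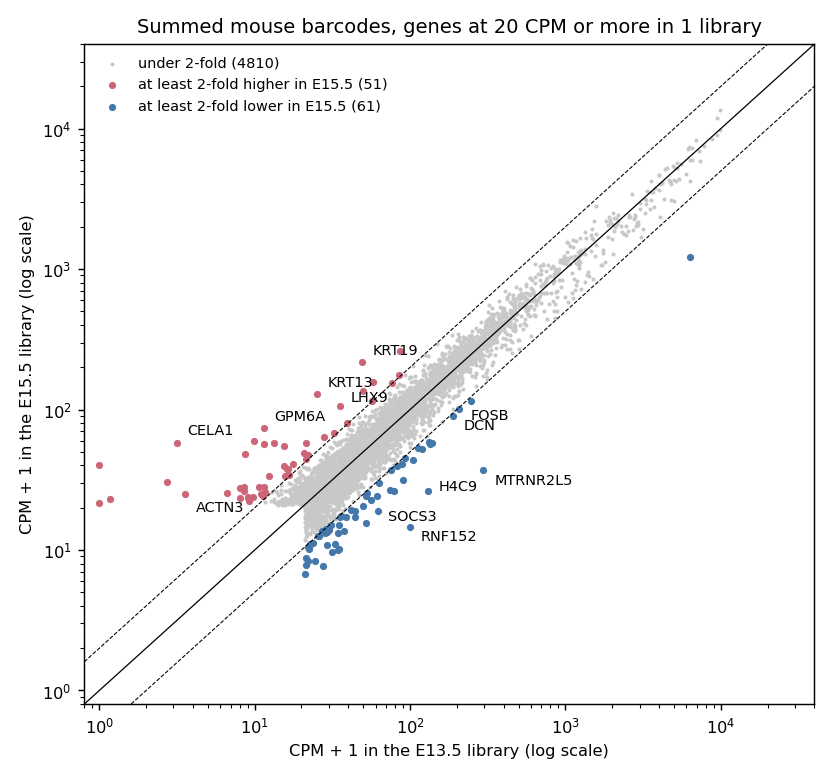
Each point is a gene at 20 CPM or more in the E13.5 or the E15.5 library, with CPM + 1 in summed mouse barcodes of E13.5 on the x axis and of E15.5 on the y axis, both on log scales. Dashed lines mark 2-fold, the solid line equality. The 51 red genes lie above and the 61 blue genes below the dashed lines, with CELA1 and MTRNR2L5 among the farthest.

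CELA1 encodes a serine protease of the elastase family. Its level at E13.5 was 2.15 CPM (95% exact Poisson interval 1.39 to 3.17), at E14.5 2.34 CPM (1.25 to 4.01) and at E15.5 57.1 CPM (52.8 to 61.6), a log2 ratio of E15.5 over E13.5 of 4.21. The gene was thus near the same low level in E13.5 and E14.5 and high in E15.5. A UMI of CELA1 was found in 0.641%, 0.599% and 4.71% of mouse barcodes thinned to 3000 UMIs, and in 0.239% of the other barcodes of E15.5. Its value did not rest on 1 barcode: leaving out the barcode with the most CELA1 UMIs gave a log2 ratio of 4.24. ACTN3, an alpha-actinin of the muscle sarcomere, was at 2.58 CPM (1.74 to 3.68), 3.06 CPM (1.78 to 4.91) and 24.1 CPM (21.3 to 27.1), a log2 ratio of 2.81. PTN, which encodes the heparin-binding growth factor pleiotrophin and was named after its values were seen, was at 85.2, 181 and 261 CPM, a log2 ratio of 1.61.

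Some genes of the ovarian surface epithelium were among the higher genes. Of 7 members of that list at 20 CPM or more, 4 passed 2-fold upward and 1 downward, with a median log2 ratio of 1.93 beside 0.04 for all genes. The list holds 17 genes, and members low in one library could reach 20 CPM only through the other, so its counts are a description. Its sum was at 267, 280 and 587 CPM in mouse barcodes and at 574, 744 and 439 CPM in the other barcodes. GPM6A, a membrane glycoprotein gene found in mesothelium and neurons, was at 10.4 CPM (8.62 to 12.4), 18.7 CPM (15.3 to 22.7) and 72.5 CPM (67.7 to 77.7), a log2 ratio of 2.69. The intermediate filament gene KRT7 was at 10.5, 10.6 and 55.8 CPM, a log2 ratio of 2.31. KRT19, another keratin gene of simple epithelia, was at 47.8 CPM (43.9 to 51.9), 58.9 CPM (52.7 to 65.7) and 218 CPM (209 to 226), a log2 ratio of 2.16. The uroplakin gene UPK3B was at 5.67, 1.62 and 24.5 CPM, a log2 ratio of 1.93. All 4 were highest in E15.5, and UPK3B was lowest in E14.5. The lower member was ALDH1A1, which encodes a retinaldehyde dehydrogenase that makes retinoic acid, at 25, 24.5 and 11.6 CPM (log2 ratio -1.05). ALDH1A2, the gene of the related enzyme of the fetal gonad, was at 120, 115 and 109 CPM and did not pass, while UPK1B, MSLN and CDH1 of this list had no UMI in E13.5 or E15.5.

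Other leading higher genes were the tight junction gene CLDN10 at 8.85, 6.49 and 59.1 CPM (log2 ratio 2.61) and the keratin gene KRT13 at 24.1, 26.3 and 127 CPM (2.35). CRIP1, the gene of a small LIM domain protein, was at 12.4, 17.5 and 56.9 CPM (2.11), and the potassium channel gene KCND2 at 14.52, 14.8 and 53.8 CPM (1.82). These 4 were likewise low in E13.5 and E14.5 and high in E15.5. LHX9, a LIM homeobox gene needed for formation of the gonad, was at 34.4 CPM (31.2 to 38.0), 34.2 CPM (29.5 to 39.5) and 105 CPM (99.2 to 111), a log2 ratio of 1.58. STAR, whose product brings cholesterol into mitochondria for steroid synthesis, was at 10.0, 8.29 and 23.9 CPM (1.17), and IGFBP2, a gene for an insulin-like growth factor binding protein, at 16.7, 16 and 40.2 CPM (1.22). In E15.5, 57.0% of STAR and 65.5% of IGFBP2 UMIs lay in barcodes with surface epithelium genes, which are described below. In the remaining barcodes the log2 ratios of STAR and IGFBP2 were 0.55 and 0.76.

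**Figure D2:**
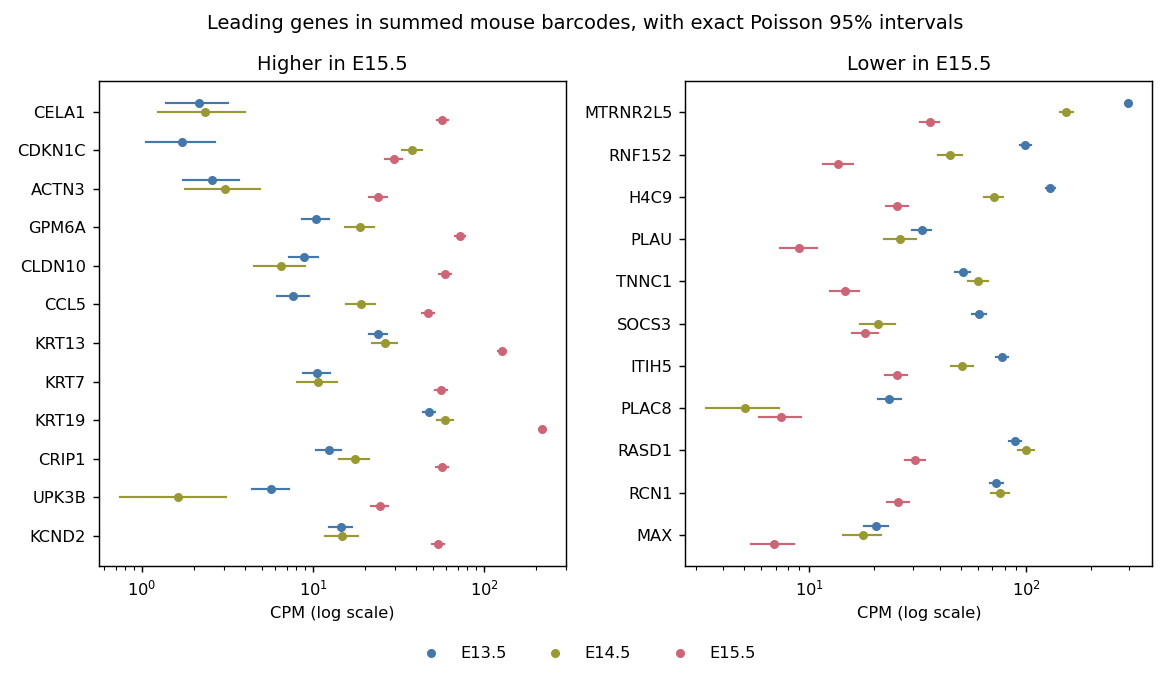
CPM on a log scale of the genes with the largest ratio in each direction, in summed mouse barcodes of E13.5 (blue), E14.5 (olive) and E15.5 (red), with bars for exact Poisson 95% intervals. Most of the higher genes sit at about the same level in E13.5 and E14.5, whereas MTRNR2L5, RNF152 and H4C9 step down from E13.5 through E14.5 to E15.5.

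Barcodes with surface epithelium genes were more frequent in E15.5. After thinning to 3000 UMIs, at least 2 of 7 such genes (UPK3B, UPK1B, KRT19, KRT7, MSLN, LRRN4 and GPM6A) were present in 1.54% of E13.5 mouse barcodes (0.988 to 2.28 by the exact Clopper-Pearson method at 95%), 2.84% in E14.5 (1.72 to 4.41) and 10.5% in E15.5 (9.04 to 12.2). The share in the other barcodes was 0.935%, 1.5% and 0.398%. KRT19 itself had a UMI in 25.7%, 31.2% and 21.4% of thinned other barcodes, so their share is no background for mouse barcodes. Thinning left out 4.99%, 6.83% and 12.1% of the mouse barcodes. Without thinning, 48, 39 and 247 barcodes (2.92%, 5.44% and 14.2%) carried these genes, with 3.49%, 8.37% and 19.8% of the mouse UMIs. INHA was at 1500 CPM or more in 1, 3 and 9 of them.

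Of the 51 higher genes, 29 had over 50% of their E15.5 UMIs in those 247 barcodes, and of the 61 lower genes 0 had. The share over all 4922 genes was not counted. Those barcodes were picked without thinning and had a median of 7891 UMIs, against 5059 in the rest of E15.5. For 4 of the 29 (UPK3B, KRT19, KRT7 and GPM6A) the high share follows from the choice of barcodes, which leaves 25 others. Without the surface barcodes 24 genes were at least 2-fold higher, 21 of them among the 51. CRIP1 had 87.0% of its E15.5 UMIs there, KRT13 81.3%, CLDN10 76.1% and LHX9 72.6%. In the remaining barcodes LHX9 was at 19.8 CPM at the earlier stage and 35.9 CPM at the later, a log2 ratio of 0.83. KRT13 was at 10.3 and 29.7 CPM there (1.44). The remaining barcodes were not free of surface genes, since the rule leaves in barcodes with 1 of them. KRT19, GPM6A, KRT7 and UPK3B had log2 ratios of 1.28, 1.69, 0.44 and 0.39 there. After thinning, exactly 1 surface gene was present in 4.55% of E13.5 and 12.6% of E15.5 mouse barcodes. The part of such barcodes in the LHX9 and KRT13 ratios was not tested. CELA1 had 10.6% of its UMIs in surface barcodes and was at 2.14 and 63.6 CPM in the rest (4.37), and PTN had 9.81% and was at 87.0 and 294 CPM (1.75). Inside the surface barcodes LHX9 was at 440 and 385 CPM and CRIP1 at 177 and 250 CPM, so neither was 2-fold apart per UMI there. Of the 25 genes, 22 were not 2-fold higher inside the surface barcodes and 3 were: ACTN3 at 29.5 and 92.1 CPM (1.61), SDPR at 27.0 and 116 CPM (2.06) and SLC6A6 at 34.4 and 169 CPM (2.26). The last 2 were named after their values were seen. PTN was also higher there, at 36.9 and 129 CPM. The number of barcodes and the depth differ between the libraries, and their part in the share was not tested. Nor was that of the sort.

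**Figure D3:**
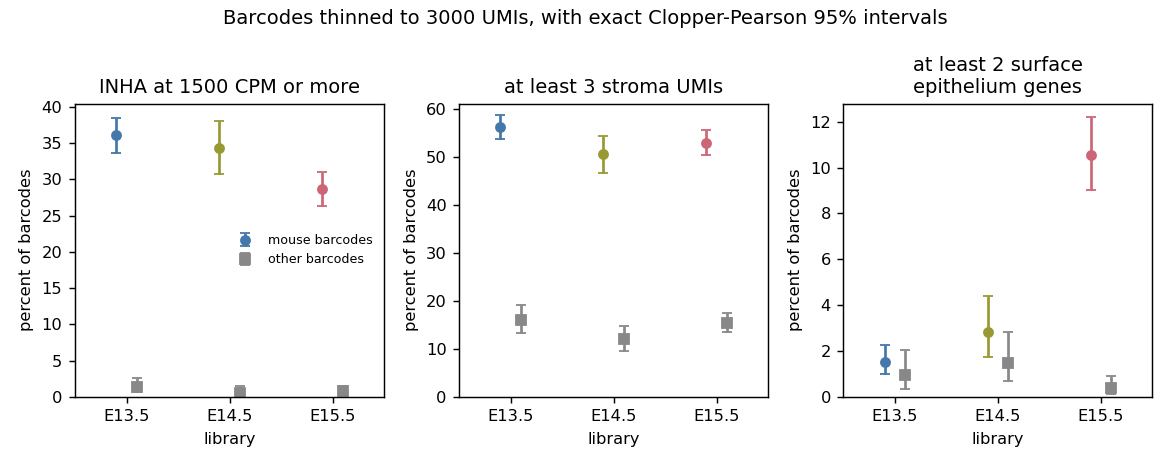
Percent of barcodes, each thinned to 3000 UMIs, with INHA at 1500 CPM or more (left), at least 3 UMIs of the stroma list (middle) and at least 2 surface epithelium genes (right), for mouse barcodes (circles) and other barcodes (grey squares) of each library. Bars are exact Clopper-Pearson 95% intervals. The surface share stands at 10.5% in E15.5 against 1.54% and 2.84%, whereas the stroma share stays between 50.6% and 56.2%.

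MTRNR2L5, a humanin-like gene related in sequence to mitochondrial ribosomal RNA, had the lowest ratio of all named genes over the summed barcodes. It was at 296 CPM (286 to 306), 153 CPM (143 to 164) and 36.0 CPM (32.6 to 39.7), a log2 ratio of -3.0. A UMI was present in 56.1%, 38.5% and 9.55% of thinned mouse barcodes and in 1.25%, 0.664% and 0.398% of the other barcodes. RNF152, the gene of a lysosomal ubiquitin ligase, was at 99.0 CPM (93.4 to 105), 44.5 CPM (39.1 to 50.4) and 13.6 CPM (11.6 to 15.9), a log2 ratio of -2.78. H4C9, a histone H4 gene, was at 130 CPM (123 to 136), 71.2 CPM (64.3 to 78.6) and 25.4 CPM (22.5 to 28.5), a log2 ratio of -2.31. All 3 had E14.5 values between those of the other stages, and none was marked for free RNA. The feature LOC107129917, which has no symbol in the tables used and was singled out after its values were seen, followed the same order at 6315, 4082 and 1226 CPM (log2 ratio -2.36). It was at 1085, 794 and 781 CPM in the other barcodes.

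SOCS3, an inhibitor of cytokine signalling, was at 60.7 CPM (56.3 to 65.4), 20.7 CPM (17.1 to 24.9) and 18.1 CPM (15.7 to 20.7), a log2 ratio of -1.69. It was high in E13.5 alone. PLAC8 was at 23.4, 5.05 and 7.38 CPM (-1.55), likewise highest in E13.5. Other genes were about as high in E14.5 as in E13.5 and low in E15.5. TNNC1, a troponin C gene, was at 51.0, 60.0 and 14.6 CPM (-1.74), the Ras-related gene RASD1 at 88.8, 100 and 30.7 CPM (-1.5), and RCN1, a calcium-binding protein gene of the endoplasmic reticulum, at 72.9, 76.2 and 25.7 CPM (-1.47). MAX, the partner of MYC, was at 20.4, 17.7 and 6.85 CPM (-1.44). The urokinase gene PLAU at 33.2, 26.3 and 8.96 CPM (-1.78) and ITIH5, a hyaluronan-associated protein gene, at 77.6, 50.6 and 25.3 CPM (-1.58) had E14.5 values in between.

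Some stromal matrix genes were lower in E15.5, while the genes of collagens I and III were not. Of 17 stroma genes at 20 CPM or more, 4 were at least 2-fold lower and 0 higher. At 1.5-fold, 8 were lower and 0 higher, where 6.34% of all genes were lower and 5.06% higher. The list median was -0.47. DCN, the proteoglycan decorin, was at 187 CPM (179 to 195), 74.8 CPM (67.8 to 82.3) and 89.3 CPM (83.9 to 95), a log2 ratio of -1.06. The collagen VI chain gene COL6A3 was at 55.1, 31.2 and 21.5 CPM (-1.32), COL6A1 at 74.8, 40.7 and 36.4 CPM (-1.02), and the collagen V chain gene COL5A1 at 28.9, 16.4 and 12.8 CPM (-1.12). Each of these 4 was highest in E13.5. The genes of collagens I and III did not pass 1.5-fold, with COL1A1 at 589, 418 and 867 CPM (0.56), COL1A2 at 859, 842 and 956 CPM (0.15) and COL3A1 at 498, 350 and 656 CPM (0.40). The share of thinned mouse barcodes with at least 3 stroma UMIs was 56.2%, 50.6% and 53.1%, against 16%, 12% and 15.46% of the other barcodes, and the stroma sum given above was no lower in E15.5. Outside the surface barcodes the log2 ratios were -0.81 for DCN, -1.09 for COL6A3, -0.96 for COL6A1 and -0.95 for COL5A1, so 1 of the 4 was still past 2-fold. The list of basement membrane and extracellular matrix genes had 1 of 18 lower, the nidogen gene NID1 at 22.6, 12.6 and 10.2 CPM (-1.08), and 0 higher.

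The INHA-high class holds mouse barcodes with INHA at 1500 CPM or more, and the INHA-low class the others. INHA was not read as a result, since it made the classes. The INHA-high class was 35.4% of mouse barcodes in E13.5 (33.1 to 37.8, 582 barcodes), 33.9% in E14.5 (30.4 to 37.5, 243 barcodes) and 25.6% in E15.5 (23.6 to 27.8, 446 barcodes). Thinned to 3000 UMIs the shares were 36.1%, 34.3% and 28.6%, so the order held and the gap was smaller. No gap separated the classes, with 51, 52 and 49 barcodes between 1200 and 1500 CPM and 51, 40 and 41 between 1500 and 1800 CPM.

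Within the INHA-high class, CELA1 and the related elastase gene CELA3B were higher in E15.5, and RNF152, MTRNR2L5, the matricellular gene CTGF and H4C9 were lower. Of 4873 genes, 28 passed 2-fold upward (0.575%) and 62 downward (1.27%). With TMM or DESeq2 size factors, 16 were higher under either, and 79 and 81 were lower. CELA1 was at 2.99, 1.35 and 84.2 CPM (log2 ratio 4.42). CELA3B was at 36.3, 64.6 and 113 CPM (1.62), and DSP, the desmosome gene desmoplakin, at 8.96, 17.5 and 30.3 CPM (1.65). Smaller ratios were found for the condensin gene NCAPH2 at 37.8, 52.5 and 86.4 CPM (1.17), the Integrator gene INTS5 at 14.7, 19.8 and 33.8 CPM (1.15), ENPP2, the autotaxin gene, at 12.2, 4.49 and 27.6 CPM (1.12), and CYP2D17, a cytochrome P450 gene, at 9.18, 11.7 and 26.6 CPM (1.44). BAMBI, a decoy receptor gene of the TGF-beta and BMP pathways, was at 79.0, 81.3 and 172 CPM (1.11).

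Lower in the INHA-high class were RNF152 at 107, 41.8 and 10.2 CPM (-3.27) and MTRNR2L5 at 309, 152 and 35.1 CPM (-3.10). CTGF, a target of the hippo pathway, was at 31.8, 28.3 and 5.63 CPM (-2.31). The transcription factor gene CEBPD was at 42.7, 3.59 and 9.39 CPM (-2.07), lowest in E14.5, and SOCS3 at 55.9, 14.8 and 11.8 CPM (-2.15). PLAU was at 60.2, 42.2 and 14.2 CPM (-2.01), and MAX at 23.5, 20.2 and 5.90 CPM (-1.83). IRF1, an interferon-induced transcription factor gene, was at 46.1, 25.6 and 14.49 CPM (-1.60). ALDH1A1 was at 30.9, 29.2 and 11.0 CPM (-1.41). The surface list, with 4 members at 20 CPM here, had a median of -0.15 in this class, with KRT19 higher at 7.68, 10.3 and 31.7 CPM (1.91), although free RNA could give 25.3% of it.

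Within the INHA-low class, most surface epithelium genes at 20 CPM or more were higher in E15.5 and some stromal genes lower. Of 4920 genes, 75 passed 2-fold upward (1.52%) and 91 downward (1.85%). Without the surface barcodes, 44 were higher, 29 of them among the 75, and 63 were lower, 57 of them among the 91. GPM6A was at 16.8, 29.5 and 107 CPM (log2 ratio 2.60), KRT19 at 74.8, 91.5 and 308 CPM (2.03), CLDN10 at 14.52, 10.8 and 85.9 CPM (2.49), ACTN3 at 4.03, 5.12 and 35.4 CPM (2.86) and LHX9 at 48, 49.99 and 148 CPM (1.60). ANGPTL7, an angiopoietin-like gene, was at 3.88, 14.45 and 23.9 CPM (2.35). Of 9 surface genes at 20 CPM or more in this class, 7 were higher, where 1.52% of all genes were, with a median of 1.73. Members low in E13.5 could reach 20 CPM only through E15.5, so this count and median are a description. Of 18 stroma genes, 6 were lower and 0 higher, with a median of -0.70, whereas in the INHA-high class 0 of 9 were called and the median was -0.01. Of the 48 surface barcodes of E13.5 and the 247 of E15.5, 1 and 9 were INHA-high, so nearly all fell in the INHA-low class. The difference between the classes was not tested, nor was the part of the surface barcodes in it. COL6A3 was at 67.3, 37.3 and 21 CPM (-1.63), DCN at 305, 118 and 129 CPM (-1.23), ITIH5 at 121, 75.0 and 33.5 CPM (-1.82), PLAC8 at 37.5, 8.43 and 10.3 CPM (-1.77) and the serine protease gene HTRA3 at 23.6, 9.03 and 6.4 CPM (-1.73). H2AC21, a histone H2A gene, was at 22.0, 16 and 6.27 CPM (-1.66).

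Of 4544 genes at 20 CPM or more in both classes, 9 were higher in both (32.1% of the INHA-high and 12% of the INHA-low calls) and 23 lower in both (37.1% and 25.3%). The classes come from the same 2 libraries, so this overlap is no independent check. No gene was called in opposite directions. Apart from LOC101866646, the 9 were CELA1, KRT19, PTN, PSMC3IP, RINT1, THAP4, FABP5 and SPINT2. LOC101866646, FABP5 and SPINT2 were marked for free germ cell RNA over all mouse barcodes, and KRT19 in the INHA-high class. In PTN the classes differed in level: it was at 18.6, 13 and 39.4 CPM in INHA-high and at 130, 294 and 369 CPM in INHA-low barcodes. THAP4, a gene of the THAP zinc finger family, was at 30.7 and 64.4 CPM in INHA-high and 31.5 and 68.4 CPM in INHA-low barcodes of E13.5 and E15.5. The 23 lower genes included MTRNR2L5, RNF152, H4C9, SOCS3, RASD1, RCN1, TNNC1, CEBPD and the insulin receptor substrate gene IRS2 at 34.4 and 9.66 CPM in INHA-high and 32.8 and 13.3 CPM in INHA-low barcodes. HTRA1, a secreted serine protease gene, was at 108 and 42.7 CPM and at 100 and 43.1 CPM. The genes first named in this paragraph were chosen after their values were seen.

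**Figure D4:**
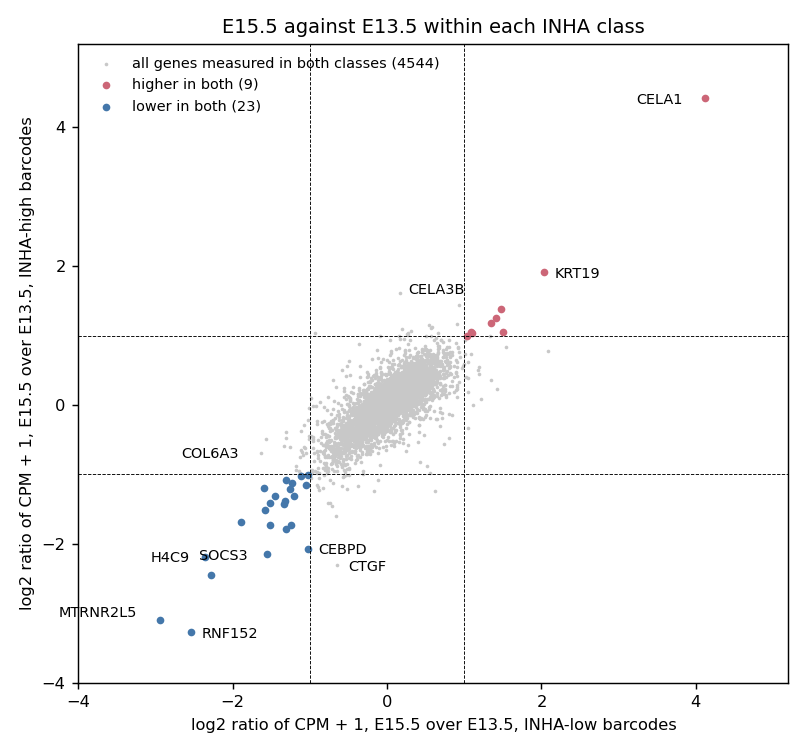
Each point is 1 of 4544 genes at 20 CPM or more in both classes, with the log2 ratio of CPM + 1 (E15.5 over E13.5) in INHA-low barcodes on the x axis and in INHA-high barcodes on the y axis. Dashed lines mark 2-fold. The 9 red genes are higher and the 23 blue genes lower in both, and no gene falls in the upper left or lower right corner.

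Over all mouse barcodes, 1 of 15 supporting cell identity genes passed 2-fold, LHX9, and the list median was 0.17. In the INHA-low class 3 of 15 were higher and 0 lower, where 1.52% of all genes were higher. The list median was 0.36 in that class. The 3 were LHX9, IRX5 at 150, 254 and 339 CPM (1.17) and LGR5, a receptor gene of the WNT pathway, at 6.04, 6.62 and 22.3 CPM (1.73). LGR5 is also on the surface epithelium list and reached 20 CPM only through E15.5. Over all mouse barcodes, LHX9 had 72.6% of its E15.5 UMIs in the surface barcodes and a log2 ratio of 0.83 outside them. In the INHA-high class 0 of 14 were called, with a median of 0.04, and the difference between the classes was not tested. At 1.5-fold the Iroquois genes IRX3 at 133, 116 and 207 CPM (log2 ratio 0.64) and IRX5 at 186, 296 and 340 CPM (0.87) and GATA6 at 181, 224 and 275 CPM (0.60) were higher. HES1, a transcriptional repressor and NOTCH target, was lower at 1342, 998 and 802 CPM (-0.74). The ovarian determinants were not called. FOXL2 was at 36.6, 35.0 and 26.2 CPM (-0.47), WNT4 at 522, 599 and 658 CPM (0.33), GATA4 at 37.0, 35.7 and 32.3 CPM (-0.19), and RUNX1 at 21.8, 30.3 and 15.8 CPM (-0.44). In the INHA-high and INHA-low classes the log2 ratios were -0.03 and -0.82 for FOXL2 and 0.33 and 0.32 for WNT4. They were -0.08 and -0.23 for GATA4 and -0.25 and -0.52 for RUNX1. WNT4 was at 496, 582 and 625 CPM in INHA-high and 539, 611 and 674 CPM in INHA-low barcodes, alike in both.

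Of 11 granulosa differentiation genes, 0 were called at 2-fold and 2 were lower at 1.5-fold, with a median of -0.37. The orphan receptor gene NR5A2 was at 81.8, 108 and 45.6 CPM (-0.83) and the gap junction gene GJA1 at 419, 522 and 268 CPM (-0.64). AMH, the anti-Mullerian hormone gene, was at 177, 251 and 142 CPM (-0.32), and in the INHA-high class at 396, 470 and 380 CPM. The list median was -0.06 within that class and -0.43 in the INHA-low class. NR5A2 had log2 ratios of -0.64 and -0.67 in the INHA-high and INHA-low classes, and GJA1 of -0.47 and -0.66.

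Among signalling genes, the beta-catenin gene CTNNB1 at 430, 520 and 659 CPM (0.62), the WNT target AXIN2 at 46.4, 49.7 and 71.3 CPM (0.61) and BAMBI at 97.7, 73.5 and 166 CPM (0.76) were 1.5-fold higher. The WNT ligand genes WNT5A at 29.6, 16.6 and 15.6 CPM (-0.88) and WNT6 at 101, 47.2 and 56.6 CPM (-0.82) were 1.5-fold lower, among 14 genes of the list with a median of 0.24. Of 26 BMP, TGF-beta and activin genes, 1 was 2-fold higher, the inhibitor of differentiation gene ID4 at 20.3, 46.5 and 43.5 CPM (1.06). A single barcode held 30.5% of its E15.5 UMIs, and without that barcode its log2 ratio was 0.63. Of 6 retinoic acid pathway genes, ALDH1A1 was 2-fold lower. Of 14 NOTCH genes found, 3 were at 20 CPM or more, and 0 of these passed 2-fold. All 3 had ratios below 0, where the median of all genes was 0.04. They were HES1, RBPJ at 105, 98.6 and 70.3 CPM (-0.58) and MAML1 at 25.9, 24.0 and 20.3 CPM (-0.34). Of 6 hippo targets 1 was lower, CTGF at 30.0, 35.0 and 14.0 CPM (-1.05), and without the barcode richest in it the ratio was -0.92.

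Among 7 sterol synthesis genes measured, 0 passed 2-fold and 4 were 1.5-fold lower, with a median of -0.64. HMGCS1, the enzyme gene at the start of the mevalonate pathway, was at 91.0, 124 and 45.0 CPM (-0.999, just under 2-fold). CYP51A1, the sterol demethylase gene, was at 57.4, 97.3 and 33.0 CPM (-0.78), and IDI1 at 35.9, 36.0 and 19.8 CPM (-0.83). The gene of the later enzyme FDFT1 was at 30.7, 20.7 and 32.8 CPM (0.10).

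Immediate-early and heat shock genes, which many stimuli induce rapidly, had a median log2 ratio of -0.15 over 23 members, and 2 were 2-fold lower. FOSB was at 207, 136 and 99.2 CPM (-1.05), and IER2 at 33.8, 19.5 and 14.1 CPM (-1.20), although IER2 was marked for free RNA. FOS was at 4708, 3367 and 4236 CPM (-0.15) and JUN at 3014, 2756 and 2694 CPM (-0.16). Of 13 histone genes of the list, 1 was 2-fold higher, H1-3 at 7.47, 5.41 and 25.2 CPM (1.63, marked for free RNA), and 1 lower, H1-4 at 245, 221 and 113 CPM (-1.10). H1-4 was also lower in the other barcodes, at 360, 397 and 174 CPM. H4C9 and H2AC21 (-1.30 over all mouse barcodes), both lower, are histone genes outside that list. HOX genes had a median of 0.46 over 9 members, 2 of them 1.5-fold higher (HOXC8 at 119, 121 and 187 CPM, HOXC10 at 12.8, 16.2 and 25.2 CPM) and 1 lower (HOXD9 at 37.0, 17.3 and 23.8 CPM). Of the 30 lists, 18 had no member called at 2-fold over all mouse barcodes, 4 of which had no member at 20 CPM.

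**Figure D5:**
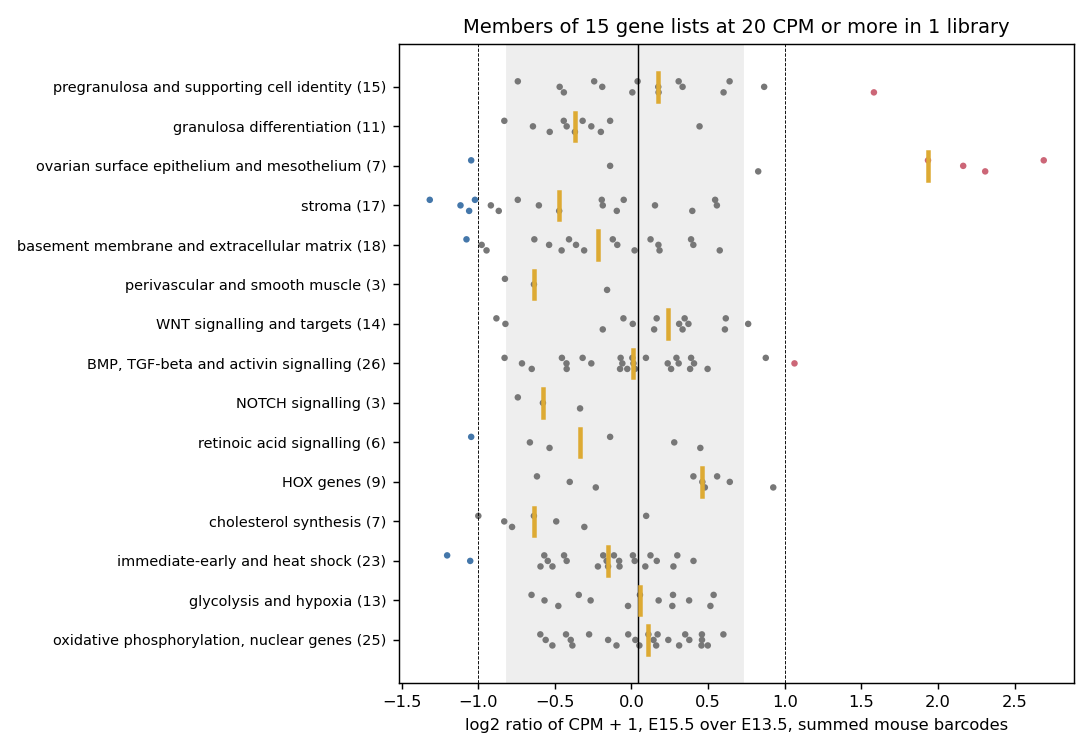
Each point is a gene of 1 of 15 lists at 20 CPM or more in E13.5 or E15.5 (their number in brackets), placed by its log2 ratio of CPM + 1, E15.5 over E13.5, in summed mouse barcodes. Gold bars are list medians, the black line is the median of all 4922 genes (0.04), the grey band holds the central 95% of genes, and dashed lines mark 2-fold. Surface epithelium genes reach farthest up, with a median of 1.93, and the cholesterol and stroma medians lie at -0.64 and -0.47.

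Several ratios rested on 1 barcode. CCNA1, a meiotic cyclin gene, had 2 UMIs in E13.5 and 251 in E15.5, all 251 in 1 barcode. CDKN1C, a cell cycle inhibitor gene, was at 1.72, 38.0 and 29.6 CPM, with 86.9% of its E15.5 UMIs in 1 barcode. Without that barcode its log2 ratio fell from 3.49 to 0.89. LTF, the lactoferrin gene, had 98.1% of its E15.5 UMIs in 1 barcode. The chemokine gene CCL5 was at 7.64, 19.1 and 47.1 CPM (2.48). Its ratio was 2.05 without the richest barcode, so it was still called. H1-3 had 70.0% in 1 barcode and was marked for free RNA. In the INHA-low class the myeloid adaptor gene TYROBP was at 0.431 CPM in E13.5, 3 UMIs in all, and 17.5 and 21.3 CPM in the later stages, with a UMI in 0.196% of thinned E15.5 barcodes. Of the 51 higher genes, 6 were not called without each gene's richest barcode, and of the 61 lower genes 3 were not.

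Some higher genes were abundant in the monkey germ cells. FABP5, a fatty acid binding protein gene, was at 14.4, 56.8 and 38.6 CPM in mouse barcodes (log2 ratio 1.36) and at 911, 1175 and 971 CPM in the other barcodes. Free RNA at the median germ share could give 109% of its mouse value. For SPINT2, a protease inhibitor gene at 10.5, 15.3 and 27.2 CPM (1.30), that figure was 54.2%. The subtracted free RNA was thus above the E15.5 value of FABP5, so no direction can be read for it after subtraction. With free RNA subtracted, 106 genes in all were at least 2-fold lower in place of 61.

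Read against the stage in between, the size rule called more genes than between the ends. E14.5 had 47 genes at least 2-fold higher than E13.5 (0.964%) and 134 lower (2.75%), of 4876. E15.5 had 230 higher than E14.5 (4.65%) and 70 lower (1.42%), of 4941. These comparisons share libraries with each other and with the one described here, and E14.5 has 5548443 mouse UMIs, so a gene at 20 CPM has a wider interval there, 16.5 to 24.1 CPM. PLAC8 and CEBPD were lowest in E14.5 and did not follow the order of the stages.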

How the data were processed

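Single cells were profiled with the 10x 3′ chemistry v3.1, in 3 libraries, 1 per stage of the mouse cells. The authors deposited UMI counts per monkey gene and barcode, made, per the file headers, by Cell Ranger 6.0.1, for barcodes already called as cells. Which build and which annotation served is not given in the sources used here. Of 26017 features, 9282 have LOC names, and 669 of these were given a symbol from a RefSeq gene table used for names only. Older symbols were matched by a short list of aliases.

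From these deposited counts, UMIs were summed over mouse barcodes (at least 1000 UMIs, under 1% mitochondrial) and over the INHA-high (1500 CPM or more) and INHA-low classes, scaled to CPM, and compared as log2 ratios of CPM + 1. The pseudocount understates the change of low genes. A call needs a 2-fold difference and 20 CPM in 1 of the 2 libraries. Mitochondrial genes, and INHA within classes, were left out. Intervals are exact Poisson or Clopper-Pearson at 95%. With 1 library per stage there was no test. Barcodes were not clustered and no doublet caller was run. Free germ cell RNA was taken as the median, over 20 germ cell genes, of the CPM in mouse over that in other barcodes, and subtracted in 1 alternative. Shares of barcodes were thinned to 3000 UMIs.

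Named genes are, among called genes with a symbol and not marked for free RNA, the 12 with the largest ratio in each direction over all mouse barcodes and the 8 in each class, up to 4 marked genes in each direction, and from each of 30 lists the called members, else up to 4 with the highest mean CPM. Other list members are named for their role, and genes outside these rules are said to be so. Some genes that the rules name are not reported here. The members, lists and rules were chosen with earlier results of these data known. The calling was tested on simulated Poisson counts with planted changes larger than 2-fold. Differences between libraries or barcodes were not simulated, so the simulation gives no rate of false calls for 1 library per stage. Alternatives were other size factors (edgeR TMM, DESeq2), CPM and UMI minimums, pseudocounts, INHA and mitochondrial limits, equal weight per barcode or class, omission of the 5% deepest barcodes and subtraction of free RNA. Omission of shared barcodes, of surface epithelium barcodes and of each gene's richest barcode was added after the data were seen. Python 3.11.15 with numpy 2.4.6, scipy 1.17.1, pandas 2.3.3 and matplotlib 3.10.9, and R with edgeR and DESeq2 for size factors, were used.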

Additional observations from a re-analysis of the deposited data

How the results depend on the processing

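With 1 library per stage, nothing here separates stage from library. Over all mouse barcodes, genes at least 2-fold higher in E15.5 numbered 19 with at least 50 CPM, 298 with no minimum and 24 without surface epithelium barcodes (51 in the report). Genes lower numbered 27, 179, 40 with a pseudocount of 5 and 106 after subtraction of free RNA (61). In INHA-high barcodes, higher genes numbered 16 with TMM and 16 with DESeq2 factors, 8 with at least 50 CPM, 389 with no minimum and 11 with a pseudocount of 5 (28), and lower genes 22, 324 and 39 under the last 3 settings and 105 after subtraction of free RNA (62). In INHA-low barcodes, higher genes numbered 31 with at least 50 CPM, 444 with no minimum, 47 with equal weight per barcode and 44 without surface barcodes (75), and lower genes 41 and 302 under the first 2 settings (91). The INHA-high share at limits of 1000 and 2000 CPM was 41.0% and 30.1% in E13.5, 45.2% and 24.0% in E14.5 and 30.6% and 21.8% in E15.5, and 28.6% in E15.5 after thinning, so at 1000 CPM E14.5 was above E13.5. The log2 ratio of CCNA1 was -0.26 without the 5% deepest barcodes, -0.23 without shared barcodes and -0.12 without its richest barcode. That of LTF in INHA-low barcodes was -0.014 without the 5% deepest barcodes. That of FABP5 was -1.05 after subtraction of free RNA, but the subtracted level was above its E15.5 value, so this ratio gives no direction. The surface epithelium list had a median of -0.15 within INHA-high barcodes. A higher minimum tests fewer genes by construction, and the cause of the other shifts was not tested. Of 2096 named gene values under these settings, 1808 stayed within the counting interval of the reported log2 ratio, 283 left it, and 5 of called genes changed sign. No paired analysis was possible because each stage has 1 library. Counting error grows below 20 CPM, and such genes were not called.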
